A study of Homo sapiens with 9 samples.

Results

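A549 cells that carry the *LOC388942-ALK* (*LA*) fusion and were then edited at *FOS* were compared with parental A549 cells, to describe what stayed different after the *FOS* editing. A549 is an established human lung adenocarcinoma line. Poly(A) RNA was sequenced from 9 libraries, of which 4 make up this comparison: 2 of *LA* cells with a guide against *FOS* (sg*FOS*; genotype sgFOS, sgLOC388942 and sgALK) and 2 of parental cells (control; genotype WT). The other libraries were 2 of *LA* cells without a further guide (*LA*; sgLOC388942 and sgALK) and 3 with a scramble guide in place of that to *FOS* (sgScr; sgScr, sgLOC388942 and sgALK), and they serve as a reference. Apart from control, every group shares the guides to *ALK* and to the *LOC388942* region. Of 26364 gene names in the count table, 24974 lie on autosomes, and the 13477 of these with enough reads in the 4 libraries were compared.

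By the study's methods, the *LA* line was made in A549 cells that express Cas9 and was grown from single cells by limiting dilution, so each *LA* library stems from a clone, whereas control cells are labelled only as WT. Clonal origin, Cas9, the viral vectors and the fusion itself can therefore differ between sg*FOS* and control together and cannot be told apart here. The labels used here give no batch of library preparation or sequencing. A batch difference between sg*FOS* and control cannot be told apart from these either, and it was not tested. The labels do not say which *FOS* guide either sg*FOS* library received, or whether same-group libraries came from separate cultures, so the p-values measure the spread between these libraries, which may be technical.

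The product of *FOS* pairs with a JUN protein through a leucine zipper to form AP-1, a transcription factor that binds short DNA elements in promoters and enhancers. *FOS*, *FOSB*, *JUN* and *EGR1* are immediate-early genes. Their transcripts appear within minutes of a growth factor signal through the ERK kinase pathway, and many of their promoters carry CArG boxes, the sites of serum response factor. A tyrosine kinase such as ALK, once switched on by a fusion, is known to signal through ERK, STAT3 and PI3 kinase.

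Both *FOS* guides of the study match chromosome 14 of GRCh37 (the build also called hg19), in the coding part of exon 4 of 4 (75747486 to 75748933), each beside an AGG PAM. The sites are shown because they fix which part of the gene was targeted. In the plus-strand reference from chr14:75747930-75748043, capitals mark the site of guide 2 (75747953 to 75747971, minus strand) and then that of guide 1 (75748005 to 75748023, plus strand).
FOS exon 4: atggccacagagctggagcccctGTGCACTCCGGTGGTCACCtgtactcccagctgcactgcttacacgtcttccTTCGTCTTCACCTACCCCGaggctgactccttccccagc
The starts of the sites lie 52 bases apart. Read counts per gene do not show the edit itself, so the share of edited *FOS* alleles was not measured here.

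Depth was similar within groups, with total counts of 14507228 and 14606965 in the sg*FOS* libraries and of 19375358 and 17189253 in the control libraries. All 6 epithelial tumor markers were expressed in the 4 libraries, with a summed level of 24664 and 13578 CPM in control and 8507 and 8281 CPM in sg*FOS*. All 4 libraries are labelled as A549 cells, a single line, so this sum does not count cell types. The sum also differed between the control libraries. The median log2 fold change of the 6 markers in sg*FOS* against control was -0.15. After each library was adjusted for transcript length and GC (described below), this median was 0.70. Of the 6, 3 were then higher and 2 lower at an edgeR adjusted p under 0.05. RNA per cell was not measured. Endothelial markers summed in these 4 libraries to at most 0.711 CPM (counts per 1000000 counts of the library size after TMM normalization) and the 10 immune markers to 44.3 and 31.9 CPM in control against 15.9 and 15.4 CPM in sg*FOS*, with 4 of the 10 at 0 counts in every library. Only 2 of the 10 had enough reads to be compared, and they went opposite ways. *CD14* was lower in sg*FOS* than in control and *ITGAM* higher. *ADGRL2*, a gene of chromosome 1 chosen after its values were seen, had 0 counts in both libraries labelled *LA*, 153 and 341 in control, 83 and 106 in sg*FOS* and 158 to 202 in sgScr. The libraries labelled *LA* thus stood apart from both kinds of edited *LA* cells, and their values are given only for reference.

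The replicates of the groups differed very unequally. The standard deviation of the log2 difference between libraries of a group was 0.833 for the 2 control libraries and 0.640 for those labelled *LA*. It was 0.270 for the 2 sg*FOS* libraries. For pairs of the 3 sgScr libraries it was 0.225 to 0.261. All p-values for sg*FOS* against sgScr alone rest on this small spread, which may be technical. The difference between control 1 and control 2 ran with transcript length (Spearman's correlation -0.350) and with GC content (0.657), both across genes, which are not independent replicates. The difference between sg*FOS* and control ran with length as well (Spearman's correlation 0.610 over 13326 genes with a length), and it ran from a median log2 fold change of -1.07 for transcripts around 814 bases to 0.96 for transcripts around 9419 bases. With a correction of each library for length and GC content, the correlation was 0.0072 and these medians were 0.085 and 0.15. The correction fits these trends itself, so a small correlation follows from it and is no check of it. The correction would also take out a difference between the cells that runs with length. The comparison with sgScr, which shares the sg*FOS* libraries, had a correlation of -0.016. Values with the correction are called corrected values and stand beside the uncorrected ones for the gene lists, and for a named gene where the correction moved its log2 fold change by over 1.5 times.

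**Figure D1:**
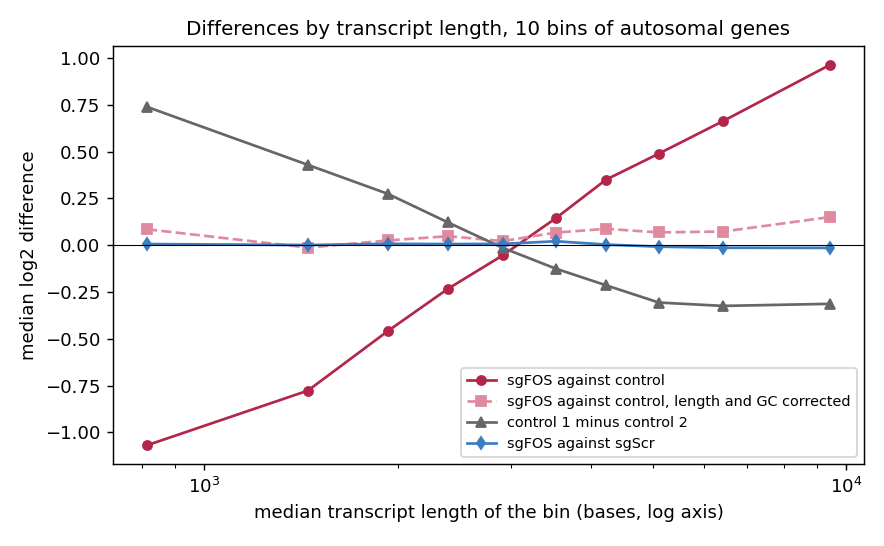
Median log2 difference (vertical axis) of autosomal genes in 10 bins of transcript length (horizontal axis, log scale), for sg*FOS* against control, the same with the length and GC correction, sg*FOS* against sgScr, and control 1 minus control 2. The uncorrected line runs from -1.07 to 0.96, the line of the 2 control libraries runs the opposite way from 0.74 to -0.31, and sg*FOS* against sgScr stays between -0.014 and 0.021.

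In edgeR's quasi-likelihood test with Benjamini-Hochberg adjustment, 1 autosomal gene was called higher in sg*FOS* than in control at an adjusted p under 0.05 (0.00742% of those tested), the immediate-early gene *EGR1*, and 0 were called lower (0.0%). The same edgeR fit gave 2423 autosomal genes higher and 2645 lower at an unadjusted p under 0.05, DESeq2 called 1610 and 1952 at an adjusted p under 0.05, and 1760 further genes had an edgeR adjusted p between 0.05 and 0.06. Since only *EGR1* was called, a gene is said here to pass the threshold when its unadjusted p is under 0.05 and its absolute log2 fold change over 0.5, the criterion of the study's methods, with no adjustment for the number of genes. All 2423 and 2645 genes did so, which is 18.0% higher and 19.6% lower of those tested, and shares within gene groups are to be read against these backgrounds. With scaling by library size alone in place of TMM, 2816 and 1918 genes passed it, and the median log2 fold change of all autosomal genes tested was then 0.22 in place of 0.015. The values given here are relative to the TMM scale. A value given as ± (SE) is the absolute log2 fold change divided by the square root of the quasi-likelihood F statistic. With so few libraries it does not give a usual confidence interval. In the corrected fit, 1018 genes were called higher (7.64%) and 843 lower (6.33%) at an adjusted p under 0.05. Of the genes past the threshold, only 804 of the 2423 higher and 551 of the 2645 lower were also called, in either direction, in the corrected fit. The sign after correction was the opposite for 83 of the higher and 284 of the lower.

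For the edited gene itself, *FOS* stood at 68.4 and 74.1 CPM in sg*FOS* against 10.8 and 9.15 CPM in control. Both edited libraries lay above both control libraries. The log2 fold change was 2.83 ± 0.24 (SE, n = 2 and 2; edgeR adjusted p = 0.0502), and 3.18 ± 0.14 when corrected. Over 15 alternative settings it ranged from 2.7 to 3.18, with adjusted p from 2.35e-161 (without control 1) to 0.0539. In sgScr cells, *FOS* was at 200, 196 and 203 CPM, so that the level fell by 1.48 ± 0.04 (SE, n = 2 and 3) on the log2 scale with the *FOS* guides (edgeR adjusted p = 2e-25). With all 9 libraries in a single fit the difference was -1.49, but with an adjusted p of 1.00 (from 1.7e-230 to 1.00 over 16 alternatives). The level of *FOS* in the edited cells thus lay between those in sgScr and in control, without overlap with either. Between sg*FOS* and control, 71.4% of all autosomal genes tested had no overlap, 5025 of them higher and 4598 lower in sg*FOS*.

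Among the 13 AP-1 subunits tested, 6 passed the threshold as higher and 2 as lower, with a median log2 fold change of 0.53 against 0.015 over all autosomal genes tested. When corrected, 7 were called higher and 1 lower (median 1.35), and the median without control 1 was 1.12. *FOSB*, a partner of JUN proteins like *FOS*, had 1.10 and 0.118 CPM in control and 17.8 and 25.2 CPM in sg*FOS*. Its log2 fold change was 5.15 ± 0.78 (SE), with only 17 and 2 counts in control. Against sgScr, at 72.1, 66.3 and 49.8 CPM, *FOSB* fell by 1.54 ± 0.11 on the log2 scale (adjusted p = 2.57e-14). *JUN*, the usual partner of *FOS*, had 11.5 and 17.4 CPM in control and 141 and 140 CPM in sg*FOS*. The log2 fold change was 3.27 ± 0.30. The sgScr libraries stood at the same height, with *JUN* at 141, 141 and 150 CPM, and the difference between sg*FOS* and sgScr was -0.03 ± 0.04 (adjusted p = 0.656).

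*FOSL2*, which encodes a FOS relative without the strong activation domain of *FOS*, had 32.3 and 23 CPM in control and 131 and 127 CPM in sg*FOS*, a log2 fold change of 2.21 ± 0.26. It was also higher in sg*FOS* than in sgScr (93.5, 88.6 and 97.4 CPM), by 0.47 ± 0.04 (adjusted p = 5.78e-11). *FOSL1*, another relative, overlapped between the groups, with 58.7 and 22.1 CPM in control and 57.1 and 59.4 CPM in sg*FOS*. Its log2 fold change of 0.53 ± 0.46 did not pass the threshold, and it was -0.04 without control 2, 1.38 without control 1 and 1.35 when corrected. *FOSL1* too rose against sgScr, by 0.44 ± 0.06 (adjusted p = 2.47e-07).

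*JUNB*, at 84.5 and 59.4 CPM in control and 131 in each sg*FOS* library, passed the threshold with 0.86 ± 0.25 (1.77 when corrected), and *ATF3*, a stress-induced AP-1 member, did so with 0.99 ± 0.33. *JUND* and *BATF3* passed it as lower, *BATF3* with -1.74 that was -0.36 when corrected and -1.10 without control 1. *JUND*, which encodes a JUN protein that is made constitutively, had 389 and 184 CPM in control and 83.3 and 82.3 CPM in sg*FOS*, a log2 fold change of -1.79 ± 0.39 that shrank to -0.59 when corrected and to -1.17 without control 1. The remaining tested subunits, *BATF2*, *ATF2*, *ATF7* and *JDP2*, had log2 fold changes of -0.17, 0.35, 0.36 and -0.13, none past the threshold. When corrected these were 0.38, 0.059, -0.34 and -0.62, in the same order. Each of these genes turned sign under at least 1 alternative. *BATF* had at most 1 count in a library and was not tested.

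**Figure D2:**
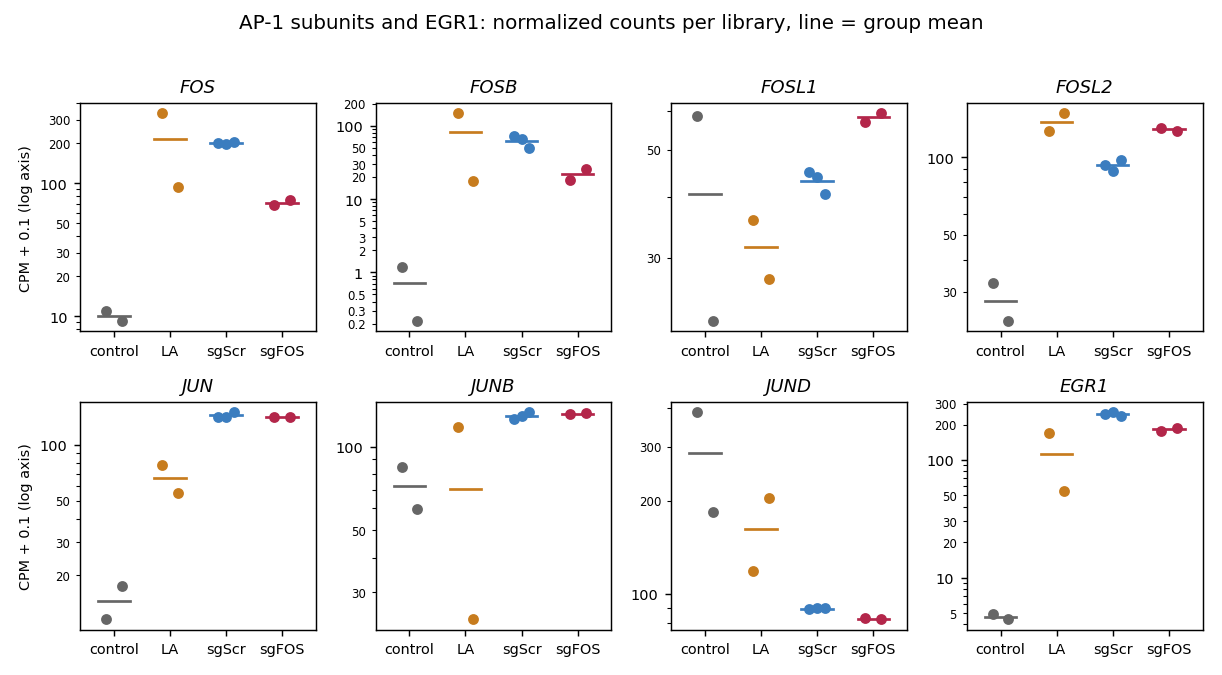
Normalized counts (CPM plus 0.1, log axis, a scale of its own in each panel) of 7 AP-1 subunits and *EGR1* in the 9 libraries, with 1 point per library and a line at the group mean. *FOS* and *FOSB* lie between control and sgScr in the sg*FOS* libraries, *JUN* is as high in sg*FOS* (141 and 140 CPM) as in sgScr, and *JUND* is lower than in control.

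*EGR1*, an immediate-early zinc finger transcription factor, had the lowest p of all genes tested. It had 4.78 and 4.31 CPM in control (74 and 73 counts) and 177 and 186 CPM in sg*FOS*. The log2 fold change was 5.31 ± 0.25 (SE, n = 2 and 2; edgeR adjusted p = 0.0363) and 5.36 when corrected. In sgScr cells *EGR1* stood at 247, 256 and 235 CPM, and it was lower in sg*FOS* than there by 0.43 ± 0.04 on the log2 scale (log2 fold change -0.43, adjusted p = 5.53e-11).

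Promoters of *FOS*, *FOSB* and *EGR1* are shown for the elements they hold. These 3 genes, chosen after their values were seen, are among those higher than in control and lower than in sgScr. Each runs from 250 bases before to 50 bases after the transcription start, with the sequence from RefSeq and its place found by an exact match in GRCh37. Capitals mark the letters TGACGT on either strand (part of a cAMP response element), TATAAA on the gene's strand, and CArG boxes; none of these matches overlap.
FOS, chr14:75745281-75745580, plus strand: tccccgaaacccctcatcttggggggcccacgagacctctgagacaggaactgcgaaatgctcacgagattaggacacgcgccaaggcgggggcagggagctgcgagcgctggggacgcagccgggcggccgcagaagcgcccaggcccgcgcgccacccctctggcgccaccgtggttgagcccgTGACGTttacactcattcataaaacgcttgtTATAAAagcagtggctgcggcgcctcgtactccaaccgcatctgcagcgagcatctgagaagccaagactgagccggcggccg
FOSB, chr19:45971004-45971303, plus strand: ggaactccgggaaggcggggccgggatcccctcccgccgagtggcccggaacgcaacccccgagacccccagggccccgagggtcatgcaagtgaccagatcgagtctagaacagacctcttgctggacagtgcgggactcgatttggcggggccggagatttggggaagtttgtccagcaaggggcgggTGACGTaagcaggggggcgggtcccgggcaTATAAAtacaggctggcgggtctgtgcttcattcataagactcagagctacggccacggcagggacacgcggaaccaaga
EGR1, chr5:137800918-137801217, plus strand: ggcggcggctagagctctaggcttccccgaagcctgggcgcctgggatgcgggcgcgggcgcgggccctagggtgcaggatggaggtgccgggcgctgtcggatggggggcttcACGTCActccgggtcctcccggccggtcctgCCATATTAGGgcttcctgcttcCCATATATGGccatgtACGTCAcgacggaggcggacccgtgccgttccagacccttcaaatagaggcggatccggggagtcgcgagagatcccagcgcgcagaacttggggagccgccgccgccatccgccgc
The *EGR1* window holds 2 CArG boxes, against 1.05% of the 10565 promoters matched to tested autosomal genes with at least 1. TGACGT occurs in all 3 windows and in 11.5% of the 10565, and TATAAA in the *FOS* and *FOSB* windows and in 3.66%. The AP-1 letters TGACTCA or TGAGTCA occur in none of the 3. They are in 3.43% of promoters of genes past the threshold as higher and 2.89% of those past it as lower, against 3.14% of the 10565, and in 5.15% of promoters of genes called higher and 1.48% of those called lower in sg*FOS* than in sgScr. These shares are descriptions of windows of 300 bases and leave out enhancers. Sequence more than 250 bases before the start was not searched, so CArG boxes of *FOS* or *FOSB* there would be missed.

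Of 25 immediate-early genes tested outside the AP-1 list, 16 passed the threshold as higher and 2 as lower (median log2 fold change 0.92). When corrected, 11 were called higher and 2 lower (median 1.11). Besides *EGR1*, *CTGF* and *KLF6* were highest. *CTGF*, a secreted matricellular factor, had 11.5 and 38.2 CPM in control and 84.3 and 85.1 CPM in sg*FOS*, a log2 fold change of 1.75 ± 0.58. It was 1.13 without control 1 and 2.86 without control 2. *KLF6*, a zinc finger factor, had 28.4 and 35.9 CPM against 103 and 112 CPM, a difference of 1.73 ± 0.24. *DUSP1*, a phosphatase that switches off MAP kinases, also passed the threshold with 1.28 ± 0.31. The 2 lower genes were *IER5L*, at -1.84 ± 0.38 (-1.19 when corrected), and *NR4A3*, at -1.64 ± 0.40 with only 13 counts in each sg*FOS* library. *NR4A1*, an orphan nuclear receptor, had 44.4 and 31.9 CPM in control and 27.8 and 36.3 CPM in sg*FOS*, so that the groups overlapped and it did not pass the threshold. Against sgScr, 4 members of this list were called higher and 12 lower at an adjusted p under 0.05, against 12.3% and 10.5% of all autosomal genes tested in that comparison, and *NR4A1* fell by 0.88 there.

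For the genes at the breakpoints, little could be read. *ALK* had 0 counts in both control libraries and 2 and 0 counts in sg*FOS* (4, 1 and 3 in sgScr, 2 and 15 in *LA*), below the limit of 3 counts that a count of 0 allows, so that a difference was not detectable at this depth. *LOC388942* had 8 and 2 counts in control and 3 and 9 in sg*FOS* and was not tested. *SLC8A1*, a sodium-calcium exchanger gene also on chromosome 2, had 7 and 8 counts against 19 and 24, a log2 fold change of 1.61 ± 0.47 that was 0.29 when corrected.

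Some receptor and kinase signaling genes were higher than in control. Of 13 ERBB receptors and ligands, 5 passed the threshold as higher and 0 as lower, and of 19 genes of ALK signaling, 12 as higher and 1 as lower. The ALK signaling median was 0.99, and 0.45 when corrected with 6 called higher, for a median transcript length of 5306 bases. The ERBB median was 0.79, 0.71 when corrected with 3 called higher, and 0.37 without control 1. *EGFR*, the epidermal growth factor receptor, had 18.6 and 24.0 CPM in control and 204 in each sg*FOS* library. Its log2 fold change was 3.25 ± 0.26, and 2.43 when corrected, while sgScr libraries held 184, 186 and 196 CPM. *EREG*, an EGFR ligand, passed the threshold with 1.37 ± 0.28, and *LRIG1*, a negative regulator of EGFR, with 1.35 ± 0.39.

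*IRS1*, an adaptor of insulin and ALK signaling, had 33.5 and 45.9 CPM in control and 169 and 166 CPM in sg*FOS*, a log2 fold change of 2.06 ± 0.26 that was 1.30 when corrected. *SOCS3*, an inhibitor of cytokine signaling and target of STAT3, stood at 13.5 and 15.4 CPM against 52.4 and 49.8 CPM, with 1.81 ± 0.23. *IL6ST*, the shared receptor chain of IL-6 type cytokines, differed by 1.68 ± 0.42 (0.91 when corrected), and *STAT3* by 1.22 ± 0.23 (0.76 when corrected). Of these 4 genes, *STAT3* was called higher than in sgScr, by 0.35 ± 0.04 (adjusted p = 5.47e-10). Of 17 feedback and target genes of ERK, 7 passed the threshold as higher and 0 as lower, led by *SPRY4* (1.38 ± 0.28) and *DUSP6* (1.24 ± 0.35), both brakes on ERK signaling, and *EPHA2* (1.19 ± 0.22), a receptor tyrosine kinase. When corrected, 1 of these 17 was called.

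Among 15 other receptor tyrosine kinases, 5 passed the threshold as higher and 3 as lower, and the corrected fit called 2 and 3. *MET*, the hepatocyte growth factor receptor, had 126 and 228 CPM in control and 438 and 430 CPM in sg*FOS*, a difference of 1.28 ± 0.35 that was 0.58 when corrected. *FGFR2* was nearly lost, with 25 and 36 counts in control and 3 and 1 in sg*FOS*.

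Genes of the extracellular matrix and of adhesion made up several groups above the background on the higher side. For basement membrane and matrix glycoproteins, 15 of 31 tested genes passed the threshold as higher and 3 as lower (median 0.91). The median was 0.56 when corrected, with 8 called higher and 2 lower, and 1.46 without control 2. *FBN2* and *FBN1* encode fibrillins, the proteins of microfibrils. *FBN2* had 15.1 and 25.3 CPM in control and 189 and 190 CPM in sg*FOS*, a log2 fold change of 3.22 ± 0.34, and it was also higher than in sgScr (125, 126 and 131 CPM), by 0.58 ± 0.04 (adjusted p = 1.12e-14). *FBN1* differed by 3.08 ± 0.37 from control and by 0.91 ± 0.08 from sgScr. *HSPG2*, which encodes the basement membrane proteoglycan perlecan, had 91.1 and 46.2 CPM against 437 and 439 CPM, a difference of 2.67 ± 0.37. *VCAN*, the proteoglycan versican, passed the threshold in the other direction, at -1.69 (-2.68 when corrected).

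Of 16 collagen genes, 8 passed the threshold as higher and 1 as lower (median 0.83). The median was 0.64 when corrected, with 5 called higher and 1 lower, and 1.39 without control 1. *COL4A1*, a chain of basement membrane collagen, had 7.76 and 13.8 CPM in control and 59.3 and 56.9 CPM in sg*FOS*, a log2 fold change of 2.41 ± 0.35. *COL5A1*, a chain of a fibril collagen, differed by 2.24 ± 0.32 from control and by 1.12 ± 0.05 from sgScr (adjusted p = 4.36e-19). *COL11A1* was the exception, with 31 and 45 counts in control and 0 and 1 in sg*FOS*. That is a ratio of 0.0143 with an exact 95% counting interval from 0.000358 to 0.0823. Against sgScr, 10 of the 15 collagens tested there were called higher and 0 lower, against 12.3% and 10.5% of all autosomal genes tested.

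Integrins, the receptors of matrix proteins, gave 7 of 18 past the threshold as higher and 0 as lower (median 1.00), and 6 called higher when corrected (median 0.75). *ITGA2*, a chain of a collagen receptor, had 12.0 and 27.3 CPM in control and 131 and 126 CPM in sg*FOS*, with a log2 fold change of 2.69 ± 0.44. *ITGAV* differed by 1.69 ± 0.38 (1.00 when corrected) and *ITGB6* by 1.56 ± 0.48, the latter at no more than 49 counts in a library of the 4. Proteases and their inhibitors gave 12 of 22 as higher and 0 as lower, with a median of 0.99 that was 0.93 when corrected, with 11 called higher. *PLAU*, the urokinase protease and a textbook AP-1 target, had 35.4 and 24.5 CPM in control and 118 and 121 CPM in sg*FOS* (1.99 ± 0.26). It was also higher than in sgScr, by 0.44 ± 0.04. *MMP2*, a gelatinase, differed by 2.13 ± 0.26 and *ADAM12* by 2.15 ± 0.38 (1.43 when corrected).

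Of 11 tested genes of the AP-1 target list, 4 passed the threshold as higher and 1 as lower (median 0.46, and 0.73 when corrected). Against sgScr, 8 of the 11 were called higher and 0 lower, against 12.3% and 10.5% of all autosomal genes tested there. The lower gene against control was *MT2A*, a metallothionein, at 709 and 210 CPM in control and 80.8 and 81.8 CPM in sg*FOS*. Its log2 fold change of -2.50 ± 0.59 shrank to -0.89 when corrected and to -1.39 without control 1, and it was higher than in sgScr by 0.55 ± 0.05.

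Genes of the Hippo pathway output, those of YAP and TEAD, gave 15 of 22 past the threshold as higher and 1 as lower, with a median of 1.17. When corrected the median was 0.68, with 8 called higher and 0 lower. *TGFB2*, a TGF-beta ligand, had 13.0 and 25.1 CPM in control and 76.0 and 82.7 CPM in sg*FOS*, a difference of 2.04 ± 0.38. *DLC1*, a GTPase activating protein, had 14.2 and 13.4 CPM against 53.3 and 53.9 CPM (1.95 ± 0.22, and 1.18 when corrected). *CYR61*, a matricellular factor made with *CTGF*, differed by 1.25 ± 0.23. The lower gene was *TEAD4*, at -0.93 ± 0.29, which was -0.12 when corrected and -0.59 without control 1.

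**Figure D3:**
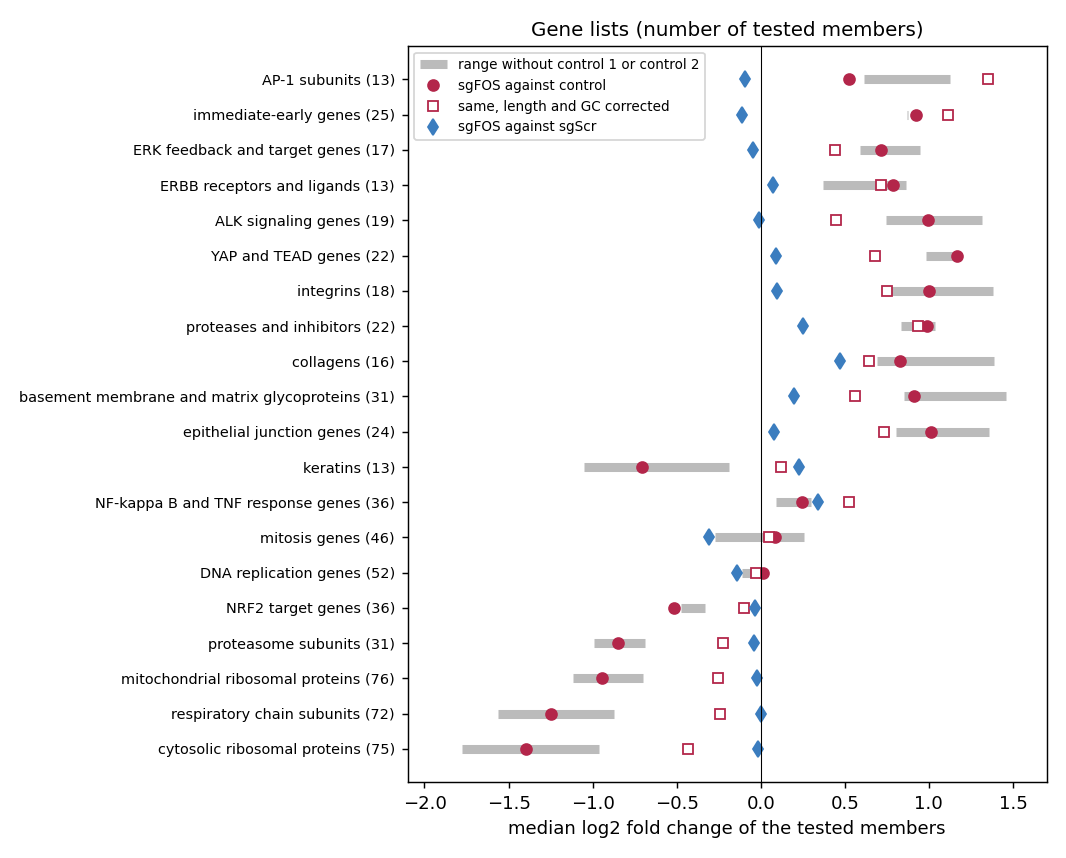
Median log2 fold change (horizontal axis) of the tested members of 20 gene lists (vertical axis, number of members in parentheses), for sg*FOS* against control as circles, the same corrected for length and GC content as squares, and sg*FOS* against sgScr as diamonds; grey bars span the medians without control 1 and without control 2. Matrix, adhesion, YAP and immediate-early lists lie right of 0 with and without the correction, while the medians of ribosomal and respiratory chain genes shrink from -1.40 and -1.25 to -0.43 and -0.24.

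Epithelial junction genes were also more often higher, with 14 of 24 past the threshold and 2 as lower (median 1.01). When corrected, 9 were called higher and 0 lower (median 0.73). *CDH1*, which encodes E-cadherin, had 18.6 and 22.0 CPM in control, 70.7 and 71.0 CPM in sg*FOS* and 68.9 to 70.9 CPM in sgScr. The log2 fold change against control was 1.80 ± 0.23, and against sgScr it was 0.03 ± 0.05. *ESRP1*, an epithelial splicing factor, and *GRHL1*, an epithelial transcription factor, differed by 2.52 ± 0.61 and 2.46 ± 0.48, at no more than 18 and 59 counts in a library of the 4. *MARVELD2*, a tight junction protein, differed by 1.92 ± 0.54. Mesenchymal regulators and markers went both ways. Of 15 tested, 4 passed the threshold as higher, among them *ACTA2*, *ZEB2* and *FN1*, and 3 as lower (median 0.30). When corrected, 3 were called higher and 2 lower (median 0.25). Among the lower was *VIM*, the mesenchymal filament vimentin, with 1714 and 1246 CPM in control and 637 and 604 CPM in sg*FOS* (-1.26 ± 0.25).

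Of the epithelial tumor markers, *EPCAM* and *CDH1* passed the threshold as higher, *KRT8* and *KRT18* as lower, and *KRT7* and *KRT19* did not pass it. *KRT8* and *KRT18*, partners in simple epithelial filaments, had log2 fold changes of -1.26 ± 0.30 and -1.61 ± 0.36, which shrank to -0.53 and -0.69 when corrected. Among 13 keratins tested, 4 passed as higher and 5 as lower (median -0.71), and the corrected fit called 3 and 4 (median 0.12). *KRT6A*, a keratin of stressed epidermis, had 0 counts in both control libraries and 36 and 26 in sg*FOS*, at least 11.2-fold higher against a limit of 3 counts per control library. *KRT6A* shares reads with near-identical keratin copies, so its count is uncertain.

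Groups of housekeeping genes with short transcripts lay on the lower side. For cytosolic ribosomal proteins, 71 of 75 tested genes passed the threshold as lower and 0 as higher, and the median was -1.40 on the log2 scale. For subunits of the respiratory chain the counts were 55 of 72 and 0 (median -1.25). Mitochondrial ribosomal proteins gave 49 of 76 as lower (median -0.94) and proteasome subunits 17 of 31 (median -0.85), with 0 higher in either list. When corrected these medians were -0.25 and -0.23, with 7 and 4 members called lower. *RPS21* had 1598 and 616 CPM in control and 210 and 202 CPM in sg*FOS*, and *ATP5D*, a subunit of ATP synthase, 381 and 139 CPM against 48.8 and 46.3 CPM. Their log2 fold changes of -2.43 and -2.45 were -0.95 and -0.69 when corrected. In each of these the 2 control libraries differed from each other by more than 2-fold.

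The median transcript lengths of the ribosomal and respiratory lists were 785 and 783.5 bases, against 3206.5 over all autosomal genes tested with a length. When corrected, their medians were -0.43 and -0.24, and 15 and 13 members were called lower. In sg*FOS* against sgScr the medians were -0.018 and 0.0034. Relative to the control mean, the ribosomal list had a median log2 level of 0.44 in control 1 and -0.44 in control 2, and between -1.36 and -1.31 in the sg*FOS* and sgScr libraries. How far the length trend and how far other differences between the libraries enter these lists was not tested.

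**Figure D4:**
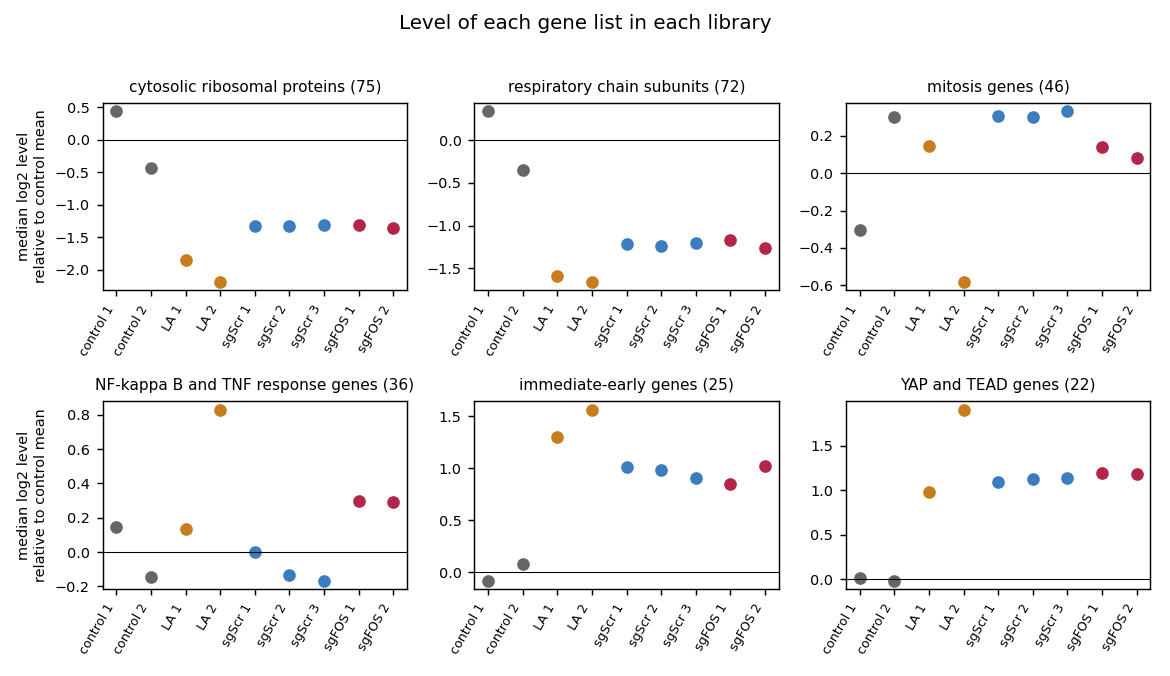
Median log2 level of 6 gene lists in each of the 9 libraries (vertical axis, relative to the mean of the 2 control libraries, from CPM plus 0.5; number of tested members in parentheses), colored by group. The 2 control libraries lie at 0.44 and -0.44 for cytosolic ribosomal proteins, the sg*FOS* libraries lie near sgScr in the ribosomal, respiratory and YAP lists, below sgScr in mitosis genes and above sgScr in NF-kappa B genes.

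Proliferation genes lay on both sides of control. Of 46 mitosis genes, 4 passed the threshold as higher and 9 as lower (median 0.08), and of 52 DNA replication genes, 5 and 14 (median 0.01). The mitosis median was -0.27 without control 1 and 0.25 without control 2, and the replication median -0.11 and -0.055. When corrected, 0 mitosis genes were called higher and 2 lower, and 2 and 5 replication genes. *TOP2A*, the mitotic topoisomerase, had 267 and 550 CPM in control and 883 and 866 CPM in sg*FOS* (1.08 ± 0.39, and 0.54 when corrected), while *PCNA*, the replication clamp, had 557 and 417 CPM against 173 and 169 CPM (-1.52 ± 0.24, and -0.87 when corrected). Without control 1 and without control 2, *TOP2A* differed by 0.65 and 1.68. Against sgScr, however, 43 of the 46 mitosis genes were called lower and 0 higher, and 26 and 1 of the 52 replication genes. Of all autosomal genes tested there, 10.5% were called lower and 12.3% higher. *TOP2A* stood at 1083, 1110 and 1099 CPM in sgScr and fell by 0.32 on the log2 scale. *CDKN1A*, which encodes the cell cycle inhibitor p21, had 87.3 and 84.0 CPM in control, 118, 111 and 119 CPM in sgScr and 275 and 264 CPM in sg*FOS*. It was highest in sg*FOS* of the 4 groups, with log2 fold changes of 1.65 ± 0.21 against control and 1.22 ± 0.04 against sgScr (adjusted p = 6.54e-25).

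Inflammatory response genes gave a mixed picture against control. Of 36 NF-kappa B and TNF response genes, 10 passed the threshold as higher and 4 as lower (median 0.24). When corrected, 10 were called higher and 0 lower (median 0.52). Against sgScr, 22 were called higher and 0 lower, against 12.3% and 10.5% of all autosomal genes tested there. *REL*, an NF-kappa B subunit, had 3.62 and 4.43 CPM in control and 35.9 and 34.0 CPM in sg*FOS* (3.10 ± 0.27). *CSF1*, the macrophage growth factor, differed by 1.55 ± 0.24. *CCL2*, a monocyte chemokine, was lower than in control, with 88.0 and 88.7 CPM against 44.4 and 43.9 CPM (-1.01 ± 0.21, and -0.05 when corrected), and higher than in sgScr (28.8, 24.5 and 25.2 CPM) by 0.76 ± 0.07 (adjusted p = 8.2e-11). *CD70*, a TNF family ligand, lay between the groups in the same way, with -1.05 ± 0.31 against control, which was 0.17 when corrected, and 1.32 ± 0.18 against sgScr.

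Of 31 interferon-stimulated genes, 4 passed as higher and 9 as lower against control (median 0.23). When corrected, 0 were called higher and 1 lower (median 0.01). Against sgScr, 13 of the 30 tested there were called higher and 1 lower, against 12.3% and 10.5% of all autosomal genes. *ISG15*, a ubiquitin-like protein, had 24.0 and 7.79 CPM in control and 2.71 and 3.33 CPM in sg*FOS*, with a log2 fold change of -2.39 that was -0.63 when corrected and -1.38 without control 1. Of 18 genes of MHC class I and peptide loading, 4 passed in each direction (median -0.23). This balance did not hold when corrected, with 4 called higher and 0 lower (median 0.18). Against sgScr, 9 were called higher and 0 lower, beside the same 12.3% and 10.5% of all autosomal genes. *HLA-B*, a class I heavy chain whose reads can be split among related genes, had 52.9 and 20.2 CPM against 9.09 and 9.59 CPM (-1.97 ± 0.49, -1.05 when corrected and -1.14 without control 1) and was higher than in sgScr by 0.74 ± 0.14.

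Of the single genes with the largest differences, many stood at a similar level in sgScr. *CRISP3*, a secreted cysteine-rich protein, had 1 and 0 counts in control and 240 and 243 in sg*FOS*, a ratio of 526 with an exact 95% counting interval from 94.0 to 20817. The sgScr libraries held 16.4 to 18.2 CPM and the sg*FOS* libraries 16.3 and 16.2 CPM, while *CRISP3* had no count in the libraries labelled *LA*. *CEACAM5*, the carcinoembryonic antigen, had 1.23 and 0.590 CPM in control and 17.8 and 15.4 CPM in sg*FOS* (4.18 ± 0.42). In *LA* it had 0.123 and 0.0559 CPM, against 19.3, 20.3 and 20.8 CPM in sgScr.

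*ZBED6*, a gene inside an intron of *ZC3H11A*, had 0.452 and 0.649 CPM in control and 27.5 and 28.7 CPM in sg*FOS* (5.63 ± 0.34). *PWAR5*, a noncoding RNA of the Prader-Willi region, had 3 and 4 counts in control and 113 and 119 in sg*FOS* (5.11 ± 0.41). *ANKRD36BP1*, a pseudogene, and *PCDHAC1*, which shares exons with the other protocadherin alpha genes, had 0 counts in control 1, and their counts are uncertain because of shared reads. *CRYBG3* and *PRKAR2A*, the latter a regulatory subunit of protein kinase A, differed by 4.38 ± 1.13 and 4.24 ± 0.66, and *CRYBG3* had 1 count in control 1 and 59 in control 2.

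Among the 10 largest differences on the lower side, *PRKCDBP* (now *CAVIN3*), a caveolar protein, had 268 and 158 counts in control and 0 and 9 in sg*FOS*. It stood at 18.9 and 22.3 CPM in *LA* and at 0.0952 to 0.292 CPM in sgScr. *MGMT*, the repair enzyme that removes alkyl groups from guanine, had 39.8 and 14.7 CPM in control and 3.26 and 2.73 CPM in sg*FOS* (-3.18 ± 0.55, and -3.42 when corrected). It was similarly low in *LA*, at 2.52 and 2.07 CPM, and in sgScr, at 2.92 to 3.50 CPM. *PRTN3*, *TMEM238*, *C4orf48*, *C19orf81*, *FAM229A* and *NRTN* were also among the 10, as was *CA9*. When corrected, *PRTN3* was -2.74 (from -4.37), *C4orf48* -0.99 (from -3.41), *C19orf81* -1.50 (from -3.33), *FAM229A* -1.25 (from -3.21) and *NRTN* -1.50 (from -3.20). Without control 1, *FAM229A* was -1.46, *C4orf48* -2.27, *C19orf81* -2.20 and *NRTN* -2.11. In *TMEM238*, with 104 and 29.9 CPM in control and 3.39 and 3.46 CPM in sg*FOS*, the difference of -4.29 ± 0.67 shrank to -1.94 when corrected.

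Of genes past the threshold against control, those that also differed most from sgScr are given next, since sgScr cells carry the same fusion guides. *CA9*, the hypoxia-induced carbonic anhydrase, had 16.9 and 7.61 CPM in control, 3.0, 2.72 and 2.64 CPM in sgScr and 0.543 and 0.666 CPM in sg*FOS*. The groups did not overlap, which between sg*FOS* and control held for 71.4% of all autosomal genes tested. The log2 fold changes of *CA9* were -4.33 ± 0.55 against control and -2.19 ± 0.33 against sgScr (adjusted p = 3.17e-06). *MUC5AC*, a gel-forming mucin, had 255 and 109 CPM in control, 83.3, 80.7 and 80.7 CPM in sgScr and 30.9 and 31.2 CPM in sg*FOS*, with -2.55 ± 0.44 and -1.39 ± 0.06 (adjusted p = 4.07e-21). *MIR210HG*, the host gene of a hypoxia-induced microRNA, followed with -2.82 ± 0.59 and -1.12 ± 0.29.

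On the other side, *CPA4*, a carboxypeptidase, had 3.43 and 2.60 CPM in control, 2.33, 2.53 and 1.67 CPM in sgScr and 8.75 and 9.25 CPM in sg*FOS*. It was higher than control by 1.57 ± 0.31 and higher than sgScr by 2.03 ± 0.18 (adjusted p = 3.07e-11), whereas sgScr and control differed by -0.45. *ABCA12*, a lipid transporter of the epidermis, had 2.13 and 4.13 CPM in control, 6.21 to 6.42 CPM in sgScr and 15.2 and 14.8 CPM in sg*FOS*, with 2.24 ± 0.40 (1.43 when corrected) and 1.25 ± 0.12. *VSTM2L* was lower than in control (-1.12 ± 0.35, and -0.16 when corrected) and higher than in sgScr (1.40 ± 0.26).

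**Figure D5:**
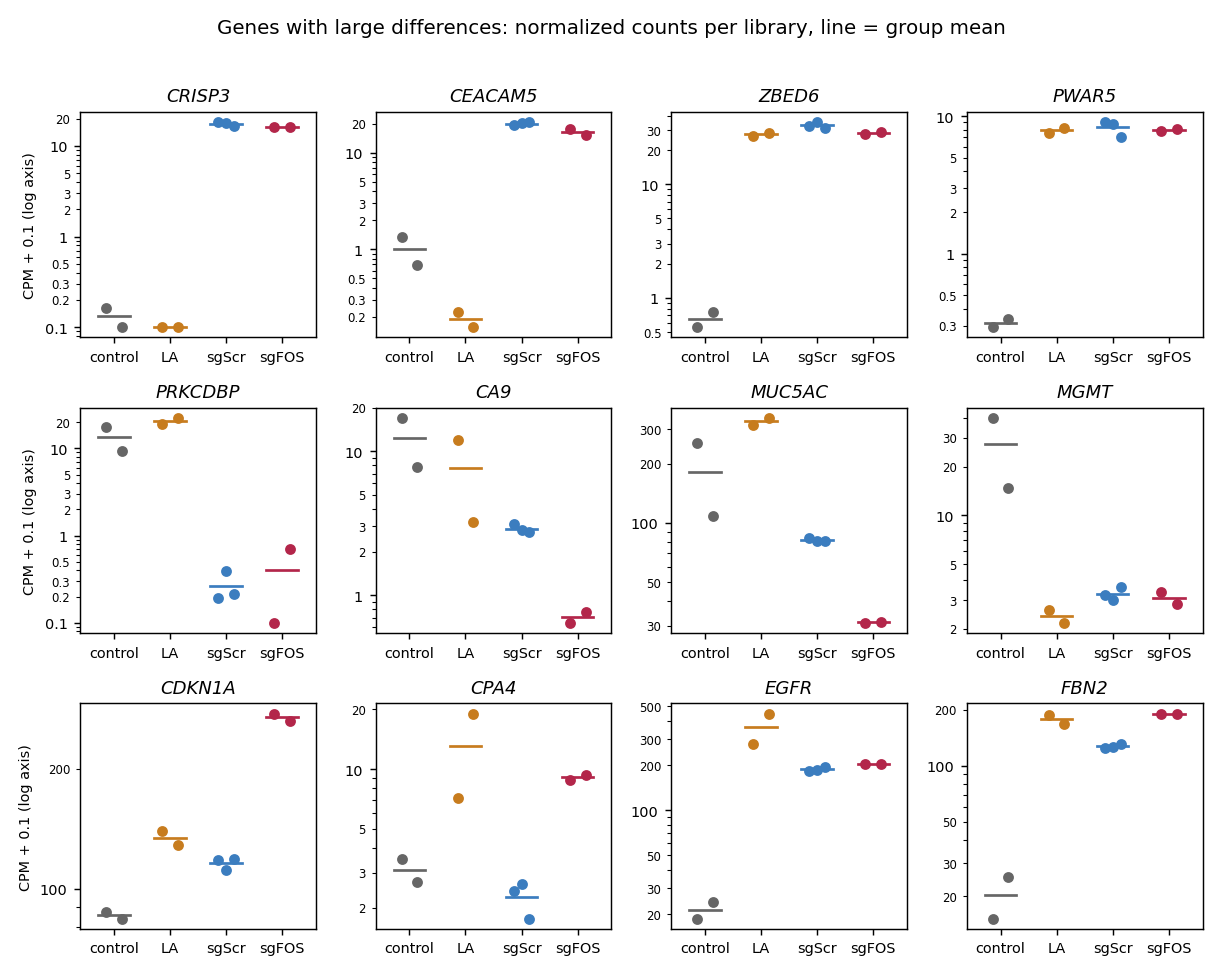
Normalized counts (CPM plus 0.1, log axis, a scale of its own in each panel) of 12 genes in the 9 libraries, with 1 point per library and a line at the group mean. *CRISP3*, *CEACAM5*, *ZBED6* and *PWAR5* are high and *PRKCDBP* and *MGMT* low in sg*FOS* and sgScr alike, while *CA9* and *MUC5AC* are lowest and *CDKN1A* (275 and 264 CPM) highest in sg*FOS*.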

How the data were processed

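Raw counts of reads per gene were deposited as 1 table of 9 libraries. Per the study's methods, the authors prepared stranded poly(A) libraries, sequenced them as paired reads on a NovaSeq instrument and aligned them to hg19 (GRCh37), and the submitters' processing notes name STAR 2.7.10b and DESeq2 1.26.0. How reads were counted, on which annotation and with which strand option, is not given in the sources used here, so reads of overlapping or antisense genes may be mixed. Of 26364 names, 28 had turned into dates, and 24974 were placed on autosomes by symbol. The 4 libraries were compared with edgeR 4.0.16 (R 4.3.3; TMM, filterByExpr with a minimum of 10 counts, quasi-likelihood test, Benjamini-Hochberg adjustment over all genes tested), and the same was done for sg*FOS* against sgScr. The correction used loess fits on length and GC content. DESeq2 1.42.0 and limma 3.58.1 served as alternatives, and the steps were tested on simulated data. The members and gene lists were chosen with earlier results of these data known. Genes were named by rule (the 10 largest differences per direction, 5 per direction against sgScr, up to 3 per list), which was re-applied at the unadjusted threshold after the values were seen; some genes the rule names are not reported here. Intervals and limits of 3 counts cover counting error only. Same-numbered control and sg*FOS* libraries were not paired by the labels.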

Additional observations from a re-analysis of the deposited data

Results flagged for a closer look

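For 14 genes, both sg*FOS* libraries moved one way from control and both libraries labelled *LA* the other way, with an edgeR adjusted p under 0.05 for the difference between sg*FOS* and *LA*. In 11 of them sg*FOS* was the lower. The fit of sg*FOS* against *LA* tested 14157 genes over all chromosomes. The share called in that fit is not given here, so the count of 14 cannot be read as many or few. On the log2 scale the differences of sg*FOS* from *LA* were -7.93 for *COL11A1* (0 and 1 counts in sg*FOS*), -6.15 for *PTPRD*, -5.83 for *CPS1*, -4.67 for *RERG*, -4.46 for *SMOC1*, -3.84 for *EVA1A* and -3.61 for *PDK4*. They were -3.04 for *TRIM31*, -2.72 for *TM4SF20*, -2.43 for *ABCC6* and -1.89 for *SPP1*. The other 3 genes were higher, with 2.55 for *BTG2*, 4.18 for *SOX2* and 7.43 for *TMEM178B*. Some of these values rest on few counts. In *LA*, *TMEM178B* stood at 0.061 and 0.17 CPM and *SOX2* at 0.18 and 0.73 CPM. *PTPRD* stood at 0.54 and 0.33 CPM in sg*FOS*. *CPS1*, the first enzyme of the urea cycle, shows the pattern at high levels, with 38.4 and 51.1 CPM in control, 699 and 416 CPM in *LA*, 12.4, 13.1 and 13.0 CPM in sgScr and 9.97 and 9.79 CPM in sg*FOS*. The sgScr libraries lay on the same side of the control mean as sg*FOS* for all 14 genes.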

How the results depend on the processing

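The number of autosomal genes called at an adjusted p under 0.05 (1 higher and 0 lower) depended on most settings. It was 1610 and 1952 with DESeq2, 2838 and 2748 with all 9 libraries in a single fit, 1018 and 843 with the length and GC correction, 1713 and 1950 with limma voom, 166 and 22 when genes needed a mean of 50 counts or more, and 614 and 354 with no filter. With library size alone, 0 genes were called higher. At the threshold of the methods it was 2423 and 2645, and at an adjusted p under 0.06 and under 0.1, both chosen after seeing the data, 981 and 780, and 1917 and 2030. Leaving out 1 library gave 86 to 5611 higher and 14 to 5392 lower. Without control 1 it gave 4649 and 4622, and without control 2 5611 and 5392, where the lone control library is assumed to vary like the sg*FOS* libraries. Genes past the threshold of the methods numbered 849 to 4651 higher and 673 to 4541 lower with 1 library left out, the highest without control 2 and the lowest without sg*FOS* 1.

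With the replicate number as a block, 1554 and 1359 genes were called, and 1503 and 1056 with the replicate block and the correction. The deviations of same-numbered libraries had r = -0.0504 over 14031 genes. This value cannot decide whether the libraries were paired, since the difference between the control libraries ran with length and GC content. The labels name no pairing.

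*FOS* against control (2.83 on the log2 scale, adjusted p = 0.0502) was 2.79 with DESeq2, 2.84 with all 9 libraries, 3.18 with the correction, 2.83 with limma voom, 2.82 when genes needed a mean of 50 counts or more, 2.85 with no filter, 2.83 with the replicate block and 3.18 with both block and correction, each past an adjusted p of 0.05, and 2.7 to 2.94 with 1 library left out. *FOS* against sgScr (-1.48) was -1.49 with all 9 libraries, with an adjusted p of 1.00 (between 1.7e-230 and 1.00 over its 16 alternatives).

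Of the genes with alternatives, 9 turned sign. These were *FOSL1* (-0.035 without control 2 to 1.38 without control 1), *BATF2* (0.38 with the correction, 0.054 with library size alone, 0.38 with block and correction, -0.44 without control 2 to 0.12 without control 1), *ATF2* (-0.078 without control 1 to 0.95 without control 2), *ATF7* (-0.34 with the correction, -0.33 with block and correction) and *JDP2* (0.091 with library size alone, 0.056 without control 1). With the correction, and with block and correction, *NR4A1* was 0.21 and 0.20, *KRT7* 0.12 and 0.13, and *CD70* 0.17 and 0.17, while *ZC3H11A* was -0.037 with the correction. The cause of these changes was not tested. Counts within gene lists moved by over 1.5 times in 171 of the list results with 1 library left out, and stayed within it in 189. Depth limits genes of few counts such as *ALK*, and 2 libraries per group limit all p-values.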

Other observations

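Metabolic groups held genes past the threshold in both directions, to be read against the background of 18.0% higher and 19.6% lower. Of 36 NRF2 target genes, the antioxidant program that A549 cells run at a high level, 15 passed the threshold as lower and 5 as higher, with a median of -0.52 that was -0.10 when corrected, with 4 called higher and 2 lower. *AKR1C1*, an aldo-keto reductase, was lower by -1.87 on the log2 scale, and *SLC7A11*, the cystine transporter, higher by 1.56 (0.72 when corrected). Of 35 genes of glycolysis and the hypoxia response, 10 passed as lower and 4 as higher (2 called higher and 6 lower when corrected), with *ALDOC*, an aldolase, at -2.69. Of 32 genes of cholesterol and fatty acid synthesis, 8 passed as lower and 6 as higher (2 called higher and 4 lower when corrected), among them *MVK*, mevalonate kinase, at -1.68 and *ACLY*, which makes cytosolic acetyl-CoA, at 1.34.

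Of 13 mucins and mucous genes, 6 passed as lower and 3 as higher, with *MUC1* at -2.90 and *MUC16* at 1.76, which was 0.22 when corrected. The corrected fit called 0 of the 13 higher and 3 lower. Of 23 genes of hepatic type, 6 passed as lower and 3 as higher (4 called higher and 3 lower when corrected), with *APOC1*, an apolipoprotein, at -2.59 (-1.05 when corrected) and *C3*, the central complement protein, at 1.96. Of 28 TGF-beta genes, 8 passed as higher and 4 as lower, with 4 and 2 called when corrected. In the BCL2 family, 1 of 16 passed as higher, the survival factor *MCL1* at 1.51, and 3 as lower, while the corrected fit called 3 higher and 0 lower.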
